A study of Mus musculus with 203 samples.

Results

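The response of the lung parenchyma to 3 weeks of house dust mite (HDM) was measured by bulk RNA-seq in 22 libraries, 10.8% of those in the series, chosen by title alone: all 10 labelled 3 weeks, parenchyma and HDM, and all 12 labelled 3 weeks, parenchyma and PBS. Every library came from female Balb/C mice aged 18 to 20 weeks. The HDM mice received the mite extract through the nose on 5 days of each week, the controls received phosphate buffered saline (PBS) in the same way, and neither group was given cigarette smoke or dexamethasone. Airway and parenchyma were separated by blunt dissection under a microscope, and whole-tissue RNA was sequenced. The labels do not name the animal behind a library, so p-values measure the spread between these libraries. For comparison, the 21 airway libraries of the same exposure (10 HDM, 11 PBS) and 20 parenchyma libraries from week 11 were used. The week 11 mice had HDM or PBS on the same schedule to week 3 and then 3 times a week, breathed normal air and received no dexamethasone.

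The parenchyma is the gas exchange part of the lung. Flat alveolar type I cells and surfactant-making alveolar type II cells line the alveoli, a dense capillary bed and alveolar fibroblasts lie beneath them, and resident macrophages patrol the surface. Inhaled mite extract carries allergens with protease activity together with chitin, glucans and endotoxin. In mice it is known for drawing in eosinophils, neutrophils and lymphocytes through chemokines, for interleukin-13 (IL-13) signals that turn airway cells to mucus and macrophages to the alternatively activated state, and for new B cell follicles near airways and vessels.

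Library totals were 18756055 to 26961987 estimated counts (median 23354555) in the PBS group and 22956224 to 35913686 (median 26414800) in the HDM group. Values are CPM, read counts scaled to library size with TMM factors, given as the lowest, the median and the highest library of a group, and log2 fold changes (log2FC, HDM less PBS) are given with their standard error from limma-voom, with n = 10 HDM and n = 12 PBS libraries. Genes are said to have risen or fallen where the adjusted p was under 0.05 and the log2FC at least 1 or at most -1. The tissue label held: the type I cell gene Ager stood at 1939, 2406 and 3037 CPM in the PBS libraries and the surfactant gene Sftpc at 12172, 18573 and 22938 CPM. RNA of club cells, which line small airways, was also abundant, with Scgb1a1 at 17868, 27455 and 45996 CPM. Of RNA from other tissues, 9 skeletal muscle genes summed to 129.1 CPM in PBS library X62 against medians of 5.63 CPM in PBS and 5.89 CPM in HDM libraries. Cardiac muscle genes summed to 36.5 to 50.8 CPM in PBS and 20.3 to 86.6 CPM in HDM libraries. The median log2FC of all 17377 genes tested was -0.13 with the TMM factors of the shared fit and -0.04 with DESeq2 size factors, so changes near 0 depend on the scale. Most genes named below follow the rule given with the methods, and Retnla, Gbp2, Cxcl10, Ighg1, Aqp1, Inmt, the BMP targets and list members named for not passing were chosen after their values were seen. In bulk tissue, fewer cells of a type and less RNA per cell cannot be told apart.

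The 10 HDM libraries fell into 2 sets by library code, a pattern seen after the results were known. The codes in the titles (X4, X24, X44 and so on to X184) rise in steps of 20, and for 1002 genes (5.77%) the 5 libraries of odd-numbered blocks of 20 codes did not overlap the 5 of even-numbered blocks. The same split gave 23 genes (0.132%) in the PBS parenchyma libraries, 0.668% of genes in the airway HDM libraries and 66 (0.38%) in the HDM parenchyma libraries of week 11. The split was 7 against 5 libraries in the PBS parenchyma and 5 against 5 in the airway HDM and week 11 libraries. Full separation is rarer by chance for 7 against 5, so the PBS share is not like for like. What the blocks stand for is not given in the sources used here. Values by set are given at the end.

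HDM changed the level of many genes in the parenchyma. Of 17377 genes tested, 2518 rose (14.5%) and 2627 fell (15.1%), 29.6% in all. Counts of list members below are to be read beside these shares, and some genes stand in several lists. The 2518 genes that rose took 5.2 to 6.99% of all counts in PBS libraries and 21.9 to 25% in HDM libraries, and the 2627 that fell took 28 to 30.3% and 10.6 to 13.8%. By the fitted values 206 genes rose by a log2FC of at least 4, against 11 that fell as far. The 206 include antibody variable genes, some of which passed the filter on low counts only through HDM libraries. Of all genes that rose, 77 were at the count floor given with the methods in PBS libraries. Of those that fell, 34 were at it in HDM libraries. How far the filter and the floor set the gap between 206 and 11 was not tested. The ranges of the groups did not overlap for 3202 genes with HDM on top (18.4%) and 3788 with HDM beneath (21.8%). By the adjusted p alone, 5808 genes were higher (33.4%) and 7691 lower (44.3%). The balance between higher and lower genes turned with the scale, so no excess of falls is claimed. DESeq2 size factors gave 2725 rises and 2306 falls, and the 22 parenchyma libraries alone 2507 and 2056. With edgeR on TMM factors these were 2522 and 2647.

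**Figure D1:**
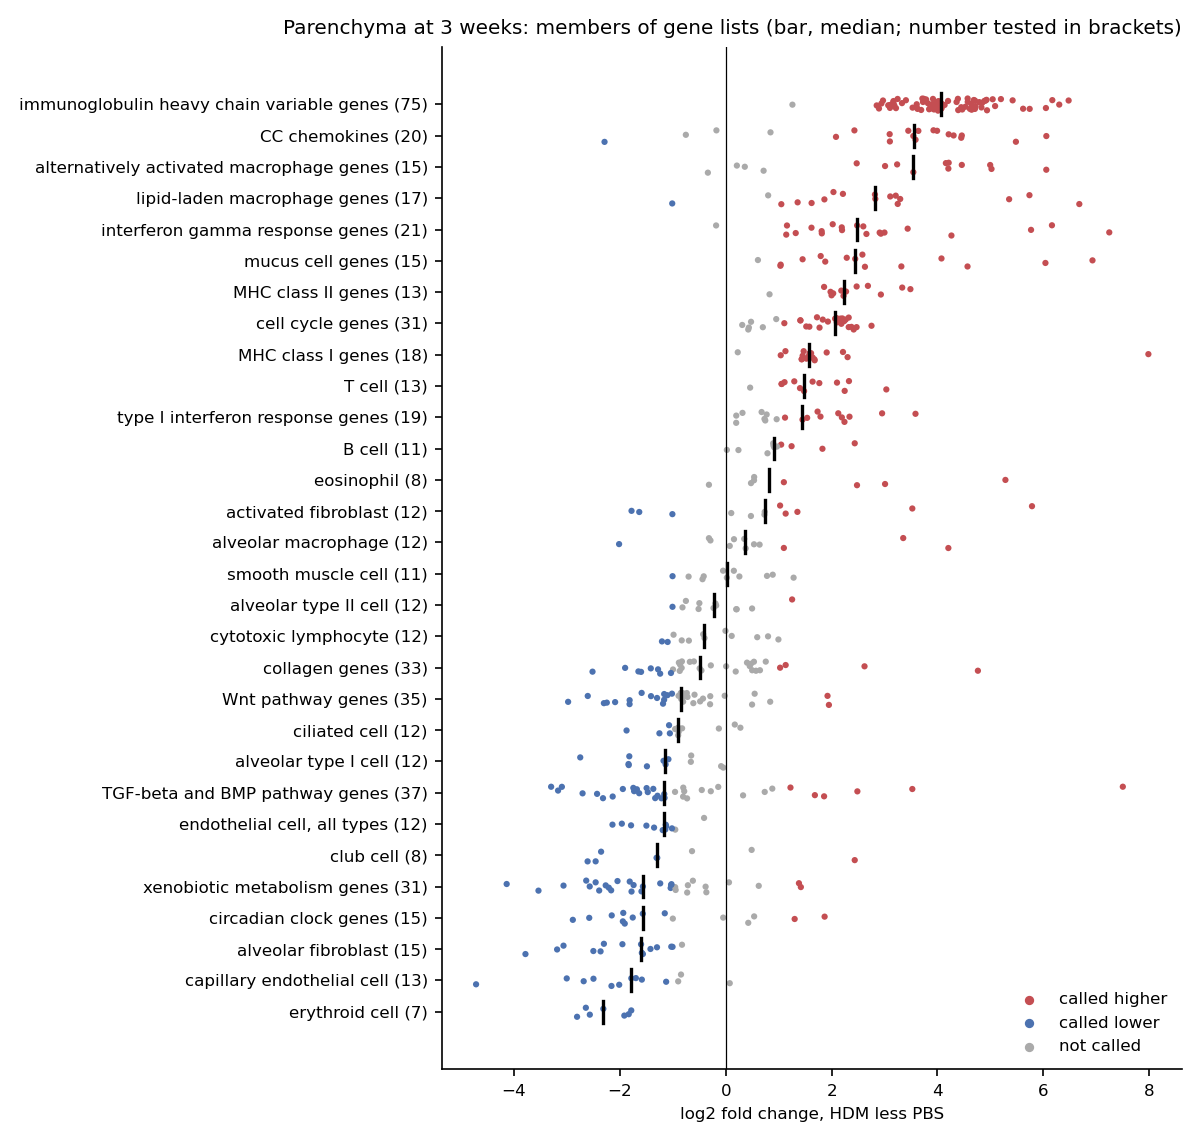
Each point is 1 gene of a list, placed by its log2 fold change (HDM less PBS, parenchyma at 3 weeks), coloured by whether it rose, fell or was not called, with a bar at the list's median and the number of genes tested in brackets. CC chemokines lie far to the right, with a median of 3.56, and erythroid, capillary and alveolar fibroblast genes lie to the left, with medians of -2.31, -1.78 and -1.60. Antibody variable genes lie to the right too, but those plotted are the members that passed the filter on low counts, some of them only through HDM libraries.

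Only some type 2 cytokines were changed. Of 11 type 2 cytokines and alarmins, 7 were expressed highly enough to be tested, of which 3 rose and 1 fell. Il13 stood at 0, 0 and 0.0799 CPM in PBS libraries and 0.258, 1.07 and 2.28 CPM in HDM libraries, and every HDM library lay above every PBS library. No PBS library held more than 3 counts, the floor used here, so its rise was at least 8.05-fold. Il6, a cytokine of the acute phase response, stood at 0.184, 0.365 and 0.639 CPM in PBS libraries and 1.95, 3.17 and 6.9 CPM in HDM libraries (log2FC 3.18 ± 0.34). The epithelial alarmins went opposite ways: Il33 rose from a median of 65.3 to 187.4 CPM (log2FC 1.46 ± 0.13), while Tslp fell from 6.02, 8.09 and 9.89 CPM to 1.04, 2.01 and 2.45 CPM (log2FC -2.16 ± 0.14). Neither alarmin overlapped between the groups. Il5, Il9, Il3 and Il25 were too low to test, and Il5 had at most 18 counts in any HDM library and 10 in any PBS library.

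Among 14 receptors and signalling genes of the type 2 pathway, 6 rose and 1 fell. Il13ra2, the decoy receptor for IL-13, rose from 0, 0.0719 and 0.207 CPM to 0.580, 2.49 and 9.31 CPM. No fold is given for this and other genes whose PBS mean was under 3 counts a library, since a fitted fold then depends on the prior count. Socs1, an inhibitor of cytokine signalling, rose as well (log2FC 2.60 ± 0.26), whereas Il4ra, the chain shared by the IL-4 and IL-13 receptors, stood at 93.3, 115.4 and 138.02 CPM in PBS libraries and 153.2, 171.5 and 219 CPM in HDM libraries, a log2FC of 0.59 ± 0.10 that passed the adjusted p but not the limit of 1. Gata3, the factor that sets the type 2 programme in lymphocytes and is also expressed in other lung cells, fell from 7.92, 14.5 and 29.5 CPM to 4.11, 5.25 and 6.75 CPM (log2FC -1.40 ± 0.18).

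Macrophage genes of the alternatively activated state rose strongly: 11 of 15 tested rose, with a list median of 3.54. Arg1, the arginase that competes with nitric oxide synthases for arginine, stood at 1.54, 2.7 and 4.11 CPM in PBS libraries and 52.7, 212 and 308 CPM in HDM libraries (log2FC 6.06 ± 0.60, adjusted p = 3.91e-12, limma-voom). Chil3, a chitinase-like protein secreted by macrophages, stood at 188.1, 343 and 821 CPM in PBS libraries and 2441, 6768 and 22841 CPM in HDM libraries (log2FC 4.21 ± 0.46), and Retnla at 55.9, 107.4 and 525 CPM in PBS libraries and 632, 1849 and 4883 CPM in HDM libraries (log2FC 4.16 ± 0.35). None of these overlapped between the groups. Both Arg1 and Chil3 differed between the 2 sets of HDM libraries. Not every gene of this state was called: the mannose receptor Mrc1 had a log2FC of 0.72, which passed the adjusted p but not the limit of 1, and the lectins Clec10a and Mgl2 0.36 and 0.21, and the haemoglobin scavenger receptor Cd163 -0.34.

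Nos2, the inducible nitric oxide synthase, stood at 1.83, 2.49 and 4.84 CPM in PBS libraries and 76.7, 219 and 366 CPM in HDM libraries (log2FC 6.16 ± 0.64), without overlap. Ddah2, which removes a natural inhibitor of these enzymes, fell (log2FC -1.16 ± 0.09). Of 11 arginine and nitric oxide genes tested, 5 rose and 1 fell.

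Mucus cell genes rose in the parenchyma libraries. Of 15 tested, 14 rose, with a list median of 2.45, although only 3 of them had no overlap between groups. Muc5ac, the main inducible mucin, stood at 0.607, 1.32 and 10.5 CPM in PBS libraries and 5.51, 25.5 and 60.4 CPM in HDM libraries (log2FC 4.08 ± 0.74), and Clca1, which processes mucus, at 0.828, 2.24 and 172.3 CPM in PBS libraries and 50.9, 497 and 1867 CPM in HDM libraries (log2FC 6.93 ± 0.93). The highest PBS library overlapped the HDM range for both. Slc26a4, the anion exchanger pendrin, rose without overlap, from 4.47, 7.66 and 11.7 CPM to 89.1, 187.9 and 332 CPM (log2FC 4.57 ± 0.39). Spdef, a transcription factor of mucus cells, had a log2FC of 0.61.

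**Figure D2:**
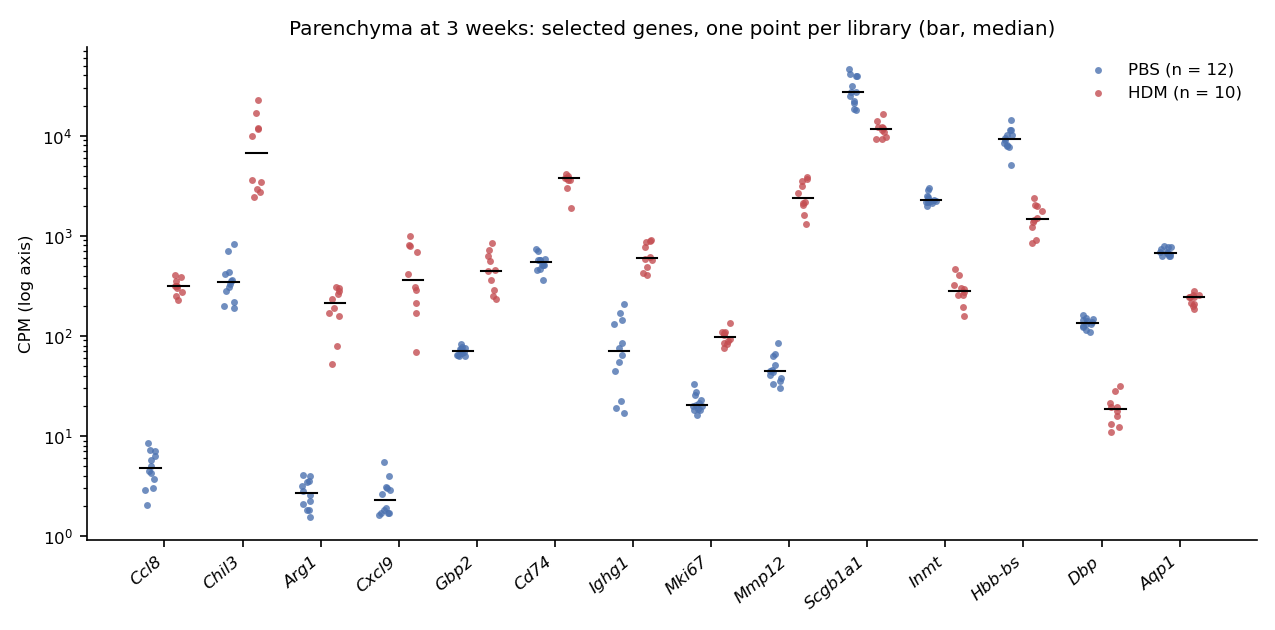
Each point is 1 library and each bar a group median, in TMM-scaled CPM on a log axis, for 14 genes of the parenchyma at 3 weeks (12 PBS libraries in blue, 10 HDM libraries in red). The groups do not overlap for any of the 14 genes, and the HDM libraries of Chil3 spread from 2441 to 22841 CPM.

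Chemokines, which guide leukocytes into tissue, rose in number and by large factors. Of 20 CC chemokines, 16 rose and 1 fell, with a list median of 3.56. Ccl8, which attracts monocytes and type 2 T cells, stood at 2.06, 4.75 and 8.59 CPM in PBS libraries and 230.0, 316 and 404 CPM in HDM libraries (log2FC 6.06 ± 0.40, adjusted p = 2.34e-17, limma-voom). Ccl22, made by dendritic cells and macrophages, stood at 3.37, 4.27 and 8.1 CPM in PBS libraries and 60.4, 108.98 and 151.5 CPM in HDM libraries (log2FC 4.46 ± 0.36). The eotaxin Ccl11, which attracts eosinophils, stood at 1.65, 2.54 and 5.15 CPM in PBS libraries and 5.35, 25.2 and 58.2 CPM in HDM libraries (log2FC 3.10 ± 0.60), with the lowest HDM library just above the highest PBS library. Ccl27a was the CC chemokine that fell, from 1.52, 2.46 and 3.44 CPM to 0.287, 0.492 and 1.04 CPM (log2FC -2.29 ± 0.19).

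Of 17 CXC, CX3C and XC chemokines, 12 rose and 1 fell, with a list median of 2.66. Cxcl9 and Cxcl11, ligands of CXCR3 induced by interferon gamma, stood at 1.61, 2.28 and 5.46 CPM in PBS libraries and 69.3, 363 and 991 CPM in HDM libraries (log2FC 7.25 ± 0.64) and at 0.157, 0.231 and 0.507 CPM in PBS libraries and 10.6, 36.2 and 107.5 CPM in HDM libraries (log2FC 6.95 ± 1.03). The neutrophil attractant Cxcl1 rose from 2.5, 6.02 and 9.67 CPM to 25.1, 31.7 and 59.9 CPM (log2FC 2.66 ± 0.20), and Ppbp, the platelet chemokine, fell (log2FC -1.63 ± 0.27). On the receptor side, 16 of 23 chemokine receptors rose and 3 fell. The monocyte receptor Ccr2 stood at 62.1, 85.4 and 106.6 CPM in PBS libraries and 156.9, 244 and 269 CPM in HDM libraries (log2FC 1.51 ± 0.10). Both atypical scavenging receptors named here fell, Ackr4 from 10.3, 12.8 and 17.6 CPM to 0.349, 1.51 and 2.45 CPM (log2FC -3.23 ± 0.22) and Ackr3 to a median of 16.4 CPM (log2FC -1.5 ± 0.17).

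Interferon gamma response genes rose almost as a whole. Of 21 tested, 20 rose, with a list median of 2.48, and the remaining member was the receptor chain Ifngr1 (log2FC -0.18). Ifng itself stood at 0.446, 0.668 and 1.19 CPM in PBS libraries and 2.24, 6.02 and 9.19 CPM in HDM libraries (log2FC 2.91 ± 0.34), and Gbp2, a guanylate binding protein of cell-autonomous defence, at 62.3, 69.96 and 82.8 CPM in PBS libraries and 235, 449 and 855 CPM in HDM libraries (log2FC 2.66 ± 0.18). HDM libraries lay above PBS libraries throughout for both genes, and for 19 of the 21. Of 19 type I interferon response genes 11 rose, with a list median of 1.45. In this list the ubiquitin-like Isg15 stood at 19.3, 21.6 and 25.8 CPM in PBS libraries and 68.6, 99.9 and 289 CPM in HDM libraries (log2FC 2.34 ± 0.22), and Oas3, a sensor of double-stranded RNA, at 2.09, 2.68 and 3.21 CPM in PBS libraries and 18.2, 30.5 and 71.1 CPM in HDM libraries (log2FC 3.58 ± 0.35).

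The promoters of these genes can be set beside the counts, since interferon-activated factors bind known short motifs. In the 250 bases before the start site (RefSeq, GRCm38.p6, 12512 of the 17377 tested genes matched by name), the core of the interferon-stimulated response element, GAAA and GAAA with any 2 bases between them, on either strand, occurred in 418 promoters (3.34%). It occurred in 99 of 1607 promoters of genes that rose (6.16%), in 50 of 1720 of genes that fell (2.91%), in 10 of 15 of the interferon gamma list (66.7%), in 8 of 15 of the type I list (53.3%) and in 1 of 14 of the CC chemokines. The shorter palindrome TTCNNNGAA, bound by STAT factors, occurred in 924 of all promoters (7.38%) and 7 of 15 of the interferon gamma list. The same palindrome with 4 free bases between TTC and GAA, the spacing preferred by STAT6 of the IL-4 and IL-13 pathway, occurred in 722 of all promoters (5.77%) and 4 of 11 of the alternatively activated macrophage list (36.4%). It also occurred in 3 of 15 of the type I list (20%) and 2 of 15 of the interferon gamma list (13.3%). TTCNNNGAA in turn occurred in 2 of 11 of the macrophage list (18.2%), and the Chil3 promoter held this form only. The interferon and macrophage lists were made of genes already known for these responses, so their shares describe the lists and not the effect of HDM. Matches of different motifs may overlap, and a match describes letters, not binding. The promoters of 2 interferon gamma responders and 1 macrophage gene carry these letters, with the matched bases in capitals.
Cxcl10: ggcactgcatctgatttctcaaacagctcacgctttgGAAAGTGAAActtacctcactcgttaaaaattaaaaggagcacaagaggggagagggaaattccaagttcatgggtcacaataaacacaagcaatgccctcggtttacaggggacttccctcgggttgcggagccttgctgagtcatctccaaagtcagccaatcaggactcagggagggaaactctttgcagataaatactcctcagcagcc
Gbp2: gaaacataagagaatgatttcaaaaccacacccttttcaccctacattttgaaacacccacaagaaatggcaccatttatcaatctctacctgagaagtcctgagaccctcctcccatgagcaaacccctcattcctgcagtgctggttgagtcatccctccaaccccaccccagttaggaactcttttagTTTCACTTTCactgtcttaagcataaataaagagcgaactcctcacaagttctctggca
Retnla: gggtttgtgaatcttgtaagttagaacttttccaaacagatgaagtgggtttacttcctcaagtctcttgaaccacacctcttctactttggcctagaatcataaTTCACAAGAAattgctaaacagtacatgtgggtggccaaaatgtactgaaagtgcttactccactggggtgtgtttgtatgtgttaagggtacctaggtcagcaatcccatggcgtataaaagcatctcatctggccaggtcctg
The Cxcl10 window is chr5:92348890-92349139 on the minus strand, with the paired GAAA core beginning 213 bases before the start. The Gbp2 window is chr3:142620413-142620662 on the plus strand, with the same core, read here from its other strand, at 59 to 50 bases before the start. The Retnla window is chr16:48842359-48842608 on the plus strand, with the STAT6 spacing in capitals. Cxcl10 stood at 0.640, 1.0 and 1.3 CPM in PBS libraries and 18.03, 59.3 and 148.8 CPM in HDM libraries (log2FC 5.77 ± 0.70). The windows of Cxcl9 and Ccl8, which rose further than Cxcl10, held none of the 3 motifs.

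Genes of both antigen presentation pathways rose. Of 13 MHC class II genes, which present peptides to CD4 T cells, 12 rose, with a list median of 2.22. Cd74, the invariant chain, stood at 365, 541 and 742 CPM in PBS libraries and 1876, 3760.4 and 4159 CPM in HDM libraries (log2FC 2.69 ± 0.16), and the class II chain H2-Aa at 234, 335 and 463 CPM in PBS libraries and 1045, 1623 and 1931 CPM in HDM libraries (log2FC 2.22 ± 0.15). Neither gene overlapped between groups, and HDM library X4 was the lowest of its group for Cd74. Of 18 MHC class I genes, 17 rose, with a list median of 1.57. H2-M2, a non-classical class I gene, stood apart from the others at 0.331, 0.928 and 3.12 CPM in PBS libraries and 160.6, 233 and 479.8 CPM in HDM libraries (log2FC 7.98 ± 0.67), while the classical H2-K1 stood at 416, 478 and 681 CPM in PBS libraries and 959.5, 1438 and 1646 CPM in HDM libraries (log2FC 1.45 ± 0.10). The peptide transporter Tap1 rose as well (log2FC 2.30 ± 0.15).

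Innate sensing genes of myeloid cells rose together. Among lectin receptors that sense glucans and mannose, and their signalling genes, 8 of 11 rose. Clec7a (dectin-1), the glucan receptor, stood at 119.1, 174.8 and 255 CPM in PBS libraries and 1336, 1743 and 2148 CPM in HDM libraries (log2FC 3.24 ± 0.25), and Clec4e (mincle) at 4.36, 9.11 and 13.8 CPM in PBS libraries and 142.1, 237 and 441 CPM in HDM libraries (log2FC 4.8 ± 0.29). Of the other families, 12 of 16 Toll-like receptors and CD14 rose, 7 of 9 Fc receptors rose and 1 fell, and 10 of 21 complement genes rose and 1 fell. Cd14, the endotoxin co-receptor, stood at 18.5, 25.2 and 31.1 CPM in PBS libraries and 209.9, 306 and 635 CPM in HDM libraries (log2FC 3.74 ± 0.15). The inhibitory Fc receptor Fcgr2b stood at 25.7, 32.4 and 39.5 CPM in PBS libraries and 352, 386 and 443 CPM in HDM libraries (log2FC 3.63 ± 0.13, adjusted p = 1.23e-24). Complement factor C3 stood at 259.7, 321 and 357 CPM in PBS libraries and 1510.3, 1814 and 2354 CPM in HDM libraries (log2FC 2.57 ± 0.12) and Cfb, of the alternative pathway, at 22.9, 40.9 and 62.03 CPM in PBS libraries and 484, 957 and 1394 CPM in HDM libraries (log2FC 4.41 ± 0.21). No library overlapped between groups for any of these 6 genes.

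The IL-1 family rose on its antagonist side as well as its agonist side. Of 15 genes tested, 10 rose and 1 fell. Il1b stood at 21, 33.8 and 40.3 CPM in PBS libraries and 195.98, 245 and 475 CPM in HDM libraries (log2FC 3.21 ± 0.22). The receptor antagonist Il1rn rose further, from 11.7, 15.7 and 28.97 CPM to 353, 468 and 689 CPM (log2FC 4.78 ± 0.24), and so did the decoy receptor Il1r2 (log2FC 4.66 ± 0.36). Il18, which induces interferon gamma, fell from 24, 32.7 and 45.6 CPM to 11.6, 13.7 and 16.6 CPM (log2FC -1.32 ± 0.17). Il1rn belongs to 4 genes that the study named as downstream of the myeloid factor SPI1 (PU.1). All 4 rose, with log2FC of 4.78 for Il1rn, 4.09 for the platelet activating factor receptor Ptafr, 3.35 for the integrin Itgax and 3.24 for Clec7a. The study chose that list on these samples, so its direction is not independent evidence. Spi1 itself stood at 14.3, 18.8 and 38.8 CPM in PBS libraries and 93.3, 119.2 and 152.4 CPM in HDM libraries (log2FC 2.56 ± 0.17), and 12 of 19 myeloid transcription factors rose.

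Genes of lipid-laden and matrix-degrading macrophages also rose by large factors: 15 of 17 rose and 1 fell, with a list median of 2.82. Some members, Mmp12 among them, also stand in other lists. Mmp12, the macrophage elastase, stood at 30.4, 44.4 and 85.8 CPM in PBS libraries and 1322, 2411 and 3828 CPM in HDM libraries (log2FC 5.74 ± 0.31, adjusted p = 8.21e-20, limma-voom). Dcstamp, needed for macrophage fusion, stood at 0.221, 0.433 and 0.839 CPM in PBS libraries and 31.7, 45.5 and 56.2 CPM in HDM libraries (log2FC 6.68 ± 0.74). Cd36, a fatty acid receptor that capillary endothelium also expresses, was the member that fell, from 1317, 1491 and 2021 CPM to 583, 739 and 1333 CPM, and its log2FC of -1.01 ± 0.13 dropped below the limit under most other settings. In absolute terms the largest gains in mean CPM were in lysosomal and macrophage genes: Lyz2, Chil3, Psap, Ctsd, Cd74 and Ctss. Lyz2, lysozyme, stood at 5724, 7671 and 10592 CPM in PBS libraries and 14534, 17058 and 20849 CPM in HDM libraries (log2FC 1.2 ± 0.14). Outside the lists the firmest rises included the scavenger receptor Msr1 (log2FC 4.11 ± 0.19), the creatine synthesis enzyme Gatm (log2FC 3.43 ± 0.16), the lysosomal glucuronidase Gusb (log2FC 1.78 ± 0.08) and the cell death effector Bak1 (log2FC 2.11 ± 0.10).

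Leukocyte markers did not all move alike. Of 12 neutrophil genes tested, 11 rose, with a list median of 2.19, and the neutrophil chemokine receptor Cxcr2 stood at 13.1, 17.3 and 19.8 CPM in PBS libraries and 97.7, 117.5 and 239.8 CPM in HDM libraries (log2FC 2.88 ± 0.21). Of 8 eosinophil genes, 4 rose. Prg2, the eosinophil major basic protein, stood at 0, 0.0901 and 0.323 CPM in PBS libraries and 2.03, 4.51 and 11.1 CPM in HDM libraries, the enzyme Alox15 rose too (log2FC 3.01 ± 0.50), and the ribonucleases Ear1, Ear2 and Ear6 had log2FC of -0.32, 0.53 and 0.48. Epx, eosinophil peroxidase, was too low to test, with a count in all 10 HDM libraries (at most 30) and in 2 of 12 PBS libraries (at most 2). Of 11 mast cell and basophil genes 2 rose (18.2%) and 2 fell (18.2%), near the 14.5% and 15.1% of all genes, and the list median was -0.31. The mast cell protease Mcpt1 rose from 0, 0.0830 and 0.439 CPM to 0.492, 2.81 and 13.5 CPM, as did the tryptase Tpsab1, to 0.0820, 0.443 and 2.35 CPM. The high-affinity IgE receptor chain Fcer1a fell (log2FC -1.08 ± 0.40), and so did the stem cell factor receptor Kit (log2FC -1.09 ± 0.13), whose log2FC was -0.96 without HDM library X64. The mast cell carboxypeptidase Cpa3 stood at 0.462, 0.888 and 1.5 CPM in PBS libraries and 0.451, 1.53 and 3.45 CPM in HDM libraries (log2FC 0.68 ± 0.68, adjusted p = 0.364). Of 12 alveolar macrophage markers, 3 rose (25%) and 1 fell (8.33%), against 14.5% and 15.1% of all genes. Chil3, Itgax and Siglecf were those that rose, and eosinophils and dendritic cells also express members of this trio. Marco, a scavenger receptor of resident alveolar macrophages, had a log2FC of 0.16, and the fatty acid binding protein Fabp1 fell (log2FC -2.01 ± 0.35). Of 12 interstitial macrophage genes 7 rose and 1 fell: C1qa stood at 24.8, 30.4 and 37.5 CPM in PBS libraries and 167.7, 267 and 304 CPM in HDM libraries (log2FC 3.07 ± 0.15), whereas Lyve1, also a lymphatic marker, fell (log2FC -1.83 ± 0.15).

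T cell genes mostly rose, and cytotoxic genes did not. Of 13 T cell genes, 12 rose. The co-receptor Cd4 stood at 3.79, 5.97 and 10.3 CPM in PBS libraries and 26.1, 54.1 and 83.96 CPM in HDM libraries (log2FC 3.03 ± 0.27), without overlap, and Cd8b1 had a log2FC of 0.46. Of 12 cytotoxic lymphocyte genes, 2 fell (16.7%, near the 15.1% of all genes) and the others did not pass the limit. Among the others was the natural killer receptor Ncr1 (26.7, 33.6 and 38.6 CPM in PBS libraries and 14.95, 17.6 and 26.7 CPM in HDM libraries, log2FC -0.83 ± 0.13). Checkpoint and regulatory genes of T cells rose in 15 of 17 cases. Pdcd1 (PD-1) stood at 0.230, 0.626 and 0.839 CPM in PBS libraries and 10.9, 23.4 and 27.1 CPM in HDM libraries (log2FC 5.17 ± 0.37), Il21, the follicular helper cytokine, at 0, 0.0231 and 0.479 CPM in PBS libraries and 5.57, 8.08 and 9.88 CPM in HDM libraries, and Il10 at 0, 0.0542 and 0.218 CPM in PBS libraries and 1.97, 2.38 and 3.14 CPM in HDM libraries. Those 3 were close to 0 in the PBS libraries and present in every HDM library.

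Antibody genes rose. All heavy chain variable genes in the table other than pseudogenes, tested or not, summed to 3.83 to 26.7 CPM in PBS and 170.8 to 701 CPM in HDM libraries, and the light chain variable genes to 47.04 to 141.4 CPM and 827 to 2602 CPM. The sums of the groups did not overlap. Of these genes 75 and 87 passed the filter on low counts, some of them only through HDM libraries, so no count of rises is given. Reads can be shared between near-identical variable genes, so single members are uncertain. Ighm stood at 65.9, 97.3 and 126.6 CPM in PBS libraries and 418, 759 and 1259 CPM in HDM libraries (log2FC 3.06 ± 0.31) and Ighg1 at 17.03, 70.1 and 209 CPM in PBS libraries and 406, 600.3 and 913 CPM in HDM libraries (log2FC 3.29 ± 0.58). Of 7 heavy chain constant genes tested, 6 rose. The gene for IgE, Ighe, was too low to test, with at most 12 counts in any HDM library and 4 in any PBS library. The plasma cell gene Jchain rose from 48.96, 92.01 and 225 CPM to 759.5, 1177 and 2040.2 CPM (log2FC 3.47 ± 0.37).

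Cell division genes rose in 25 of 31 cases, with a list median of 2.07. Mki67 stood at 16.4, 20.3 and 33.4 CPM in PBS libraries and 74.8, 97.9 and 135.2 CPM in HDM libraries (log2FC 2.18 ± 0.14) and Top2a, a topoisomerase of dividing cells, at 6.84, 8.8 and 14.3 CPM in PBS libraries and 45.5, 65.2 and 93.2 CPM in HDM libraries (log2FC 2.75 ± 0.17), without overlap. Which cells divided cannot be told from bulk tissue.

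Most endothelial genes fell. Of 13 capillary genes 10 fell, of 12 pan-endothelial genes 10 fell and of 14 artery, vein and lymphatic genes 11 fell. Esm1, a marker of growing vessels, stood at 55.3, 85.5 and 195.8 CPM in PBS libraries and 1.86, 3.1 and 6.93 CPM in HDM libraries (log2FC -4.72 ± 0.41). Gpihbp1, which carries lipoprotein lipase to the capillary surface, stood at 171.3, 212 and 257 CPM in PBS libraries and 38.7, 46.03 and 58.4 CPM in HDM libraries (log2FC -2.16 ± 0.18), and the angiopoietin receptor Tek at 274, 331 and 389.9 CPM in PBS libraries and 51.6, 76.1 and 109.9 CPM in HDM libraries (log2FC -2.14 ± 0.16). Angpt1, the ligand of Tek, fell as well, from 117.2, 136.9 and 178.9 CPM to 19.9, 23.9 and 31.5 CPM (log2FC -2.56 ± 0.10, adjusted p = 4.95e-24). The water channel Aqp1 stood at 626, 678 and 784 CPM in PBS libraries and 185.1, 246 and 283 CPM in HDM libraries (log2FC -1.57 ± 0.10). HDM libraries were below PBS libraries without overlap for all 5. Red cell RNA moved the same way: all 7 erythroid genes fell, and their summed level was 7954 to 23305 CPM in PBS and 1499.5 to 4151 CPM in HDM libraries. Its part in the endothelial result was not tested. In contrast, of 8 endothelial adhesion molecules 5 rose, though 1 fell. The leukocyte-capturing Selp and Sele were among those that rose, Selp from 1.22, 2.08 and 3.24 CPM to 8.26, 12.8 and 22.02 CPM (log2FC 2.57 ± 0.35).

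Alveolar fibroblast genes fell in 14 of 15 cases, and the remaining member, the growth factor Fgf10, had a log2FC of -0.83. Itga8, an integrin chain, stood at 212, 356 and 367 CPM in PBS libraries and 24.5, 37.3 and 55.6 CPM in HDM libraries (log2FC -3.19 ± 0.13, adjusted p = 7.5e-23, limma-voom). The transcription factor Tcf21 stood at 71.7, 93 and 112.4 CPM in PBS libraries and 10.3, 16.7 and 26.9 CPM in HDM libraries (log2FC -2.5 ± 0.14) and the methyltransferase Inmt at 1999.9, 2263 and 2989.5 CPM in PBS libraries and 159.8, 283 and 468 CPM in HDM libraries (log2FC -3.06 ± 0.16). Of 12 adventitial fibroblast genes 5 fell, among them the procollagen enhancer Pcolce2, at 161.3, 210.2 and 256 CPM in PBS libraries and 17.9, 23.9 and 38.4 CPM in HDM libraries (log2FC -3.05 ± 0.11). Pericyte genes fell in 6 of 10 cases, while 10 of 11 smooth muscle genes were not called, Myh11 being at 11.04, 13.5 and 17.2 CPM in PBS libraries and 11.4, 15.5 and 24.02 CPM in HDM libraries (log2FC 0.26 ± 0.45).

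Activated fibroblast genes were divided, with 5 of 12 rising and 3 falling. Timp1, an inhibitor of matrix metalloproteases, stood at 3.62, 5.7 and 8.14 CPM in PBS libraries and 205, 332 and 414 CPM in HDM libraries (log2FC 5.79 ± 0.34). Cthrc1, a marker of matrix-producing fibroblasts in scarring lungs, fell from 7.0, 8.74 and 10.02 CPM to 0.968, 2.9 and 3.38 CPM (log2FC -1.78 ± 0.14). Of 33 collagens 4 rose (12.1%) and 8 fell (24.2%), against 14.5% and 15.1% of all genes. Col1a1, the main fibrillar collagen, stood at 23.1, 32.9 and 44.8 CPM in PBS libraries and 41.98, 72.2 and 121.99 CPM in HDM libraries (log2FC 1.13 ± 0.22), with overlap, and its log2FC was 0.94 in the odd-numbered blocks alone. Col24a1 rose without overlap (log2FC 4.76 ± 0.47), and Col12a1 fell from 37.2, 48.6 and 63.9 CPM to 5.21, 8.04 and 13.4 CPM (log2FC -2.52 ± 0.17). Of 35 other matrix genes 11 rose and 9 fell. Thbs4, a matrix glycoprotein, was close to 0 in PBS libraries and present in all HDM libraries, at 0, 0.0554 and 0.528 CPM in PBS libraries and 18.2, 24.7 and 34.9 CPM in HDM libraries. Fibronectin, Fn1, stood at 149.6, 272 and 377 CPM in PBS libraries and 398, 651 and 773 CPM in HDM libraries (log2FC 1.17 ± 0.19), and the elastic fibre protein Efemp1 fell (log2FC -2.49 ± 0.10).

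More genes of growth factor pathways fell than rose. Of 37 TGF-beta and BMP pathway genes, 6 rose and 20 fell. The risers were Tgfb1, at 19.5, 24.9 and 37.6 CPM in PBS libraries and 62.3, 86.9 and 96.2 CPM in HDM libraries (log2FC 1.68 ± 0.15), its receptor Tgfbr1, the induced gene Tgfbi, and 3 genes of activins and BMP antagonism, Inhba, Fst and Grem1. Inhba, the activin A subunit, stood at 0.106, 0.268 and 0.668 CPM in PBS libraries and 30.5, 52.7 and 67.8 CPM in HDM libraries (log2FC 7.50 ± 0.83). The BMP ligand Bmp7 stood at 0.792, 1.89 and 2.66 CPM in PBS libraries and 0.0645, 0.168 and 0.360 CPM in HDM libraries (log2FC -3.17 ± 0.49), the receptor Bmpr2 had a log2FC of -1.94, and the target genes Id1, Id3, Smad6 and Smad9 had -1.37, -1.47, -1.73 and -2.71. The BMP antagonist Chrdl1 fell too (log2FC -3.30 ± 0.18). Of 35 Wnt pathway genes, 2 rose and 15 fell. Wnt2 stood at 11.8, 19.7 and 23.9 CPM in PBS libraries and 2.4, 4.06 and 5.53 CPM in HDM libraries (log2FC -2.30 ± 0.22) and the enhancer Rspo1 at 8.41, 12.1 and 16.4 CPM in PBS libraries and 1.4, 1.98 and 2.79 CPM in HDM libraries (log2FC -2.61 ± 0.20), while the inhibitor Sfrp1 rose (log2FC 1.95 ± 0.24).

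Alveolar epithelium changed unevenly. Of 12 type I cell genes 8 fell, among them Ager, to 947, 1044 and 1249.9 CPM (log2FC -1.18 ± 0.26), and Hopx, which stood at 828.5, 985 and 1081 CPM in PBS libraries and 217, 278 and 315 CPM in HDM libraries (log2FC -1.84 ± 0.16). Type II cell genes mostly kept under the limit, with 1 of 12 rising and 1 falling. Sftpd, a collectin that binds microbes, rose from 905, 1161 and 1355 CPM to 2179, 2755 and 3319.5 CPM (log2FC 1.25 ± 0.14), and Sftpc stood at 7701, 8736 and 12444 CPM in HDM libraries (log2FC -1.01 ± 0.26), under the limit in most other settings. The keratin Krt8 stood at 144.2, 169.9 and 183.8 CPM in PBS libraries and 135.9, 164.4 and 243 CPM in HDM libraries (log2FC 0.03 ± 0.08, adjusted p = 0.736). Of the 11 genes of transitional alveolar cells, Krt8 among them, 5 rose and the list median was 0.03. Sfn and Cldn4 were 2 of those that rose, with log2FC of 2.28 ± 0.20 and 2.10 ± 0.25. Of the club cell genes 5 of 8 fell, including Scgb1a1, which dropped to 9192, 11725 and 16649 CPM (log2FC -1.29 ± 0.17), and Cyp2f2, which stood at 1375, 1678 and 2439 CPM in PBS libraries and 215, 311 and 447 CPM in HDM libraries (log2FC -2.46 ± 0.17). The antimicrobial lectin Reg3g rose (log2FC 2.44 ± 0.35). Foxj1, the ciliated cell factor, had a log2FC of 0.17 ± 0.17 (adjusted p = 0.365), and 4 of 12 ciliated cell genes fell.

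Enzymes that handle foreign chemicals fell in 20 of 31 cases and rose in 2, with a list median of -1.56. Cyp1a1, a target of the aryl hydrocarbon receptor, stood at 2.02, 5.86 and 10.5 CPM in PBS libraries and 0.0410, 0.327 and 1.23 CPM in HDM libraries (log2FC -4.14 ± 0.53). Cyp1b1 rose (log2FC 1.42 ± 0.28). Several of these enzymes are made by club cells, whose markers fell beside them, and that part was not tested. Of 19 NRF2 and antioxidant genes 6 rose (31.6%) and 3 fell (15.8%), against 14.5% and 15.1% of all genes. The cystine transporter Slc7a11 stood at 2.92, 6.53 and 9.31 CPM in PBS libraries and 124.6, 145.1 and 209 CPM in HDM libraries (log2FC 4.60 ± 0.30), haem oxygenase Hmox1 at 19.7, 26.9 and 45.1 CPM in PBS libraries and 151.2, 229.7 and 366 CPM in HDM libraries (log2FC 2.96 ± 0.18), and superoxide dismutase Sod1 fell (log2FC -1.19 ± 0.08).

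Of 15 clock genes 2 rose and 9 fell. The activators Arntl and Npas2 rose, Arntl from 3.7, 4.37 and 6.79 CPM to 8.61, 11.9 and 15.2 CPM (log2FC 1.30 ± 0.14). Dbp, an output gene, stood at 110.1, 134.4 and 162.6 CPM in PBS libraries and 10.8, 18.5 and 31.4 CPM in HDM libraries (log2FC -2.89 ± 0.13, adjusted p = 6.74e-22), and the repressor Nr1d1 at 55.8, 84.5 and 108.6 CPM in PBS libraries and 6.97, 13.7 and 23.5 CPM in HDM libraries (log2FC -2.58 ± 0.14). No library overlapped for these 3 genes.

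Of 13 bronchomotor receptors 3 rose (23.1%) and 7 fell (53.8%), and of 8 renin-angiotensin genes 1 rose (12.5%) and 5 fell (62.5%). Of 15 glucocorticoid receptor and target genes 4 rose (26.7%) and 5 fell (33.3%). Of all genes 14.5% rose and 15.1% fell, so the share of renin-angiotensin genes that rose was near that of all genes. Npr3, a clearance receptor for natriuretic peptides, stood at 81.6, 136.5 and 210.3 CPM in PBS libraries and 8.8, 16.2 and 27.8 CPM in HDM libraries (log2FC -3.10 ± 0.24). Agtr1a, the angiotensin receptor, fell (log2FC -2.89 ± 0.13), as did Hsd11b1, which regenerates active glucocorticoid inside cells, at 114.6, 152.7 and 198.1 CPM in PBS libraries and 41.6, 51.6 and 59.1 CPM in HDM libraries (log2FC -1.59 ± 0.13). Hsd11b2, which inactivates glucocorticoid, rose from 0.308, 0.899 and 1.71 CPM to 3.08, 6.36 and 13.5 CPM (log2FC 2.72 ± 0.30). The glucocorticoid receptor Nr3c1 stood at 209.7, 229 and 254 CPM in PBS libraries and 133.6, 146.2 and 158.9 CPM in HDM libraries, a log2FC of -0.66 ± 0.06 without overlap.

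Of 81 nuclear genes of oxidative phosphorylation 7 fell and 45 were lower by the adjusted p alone, against 15.1% and 44.3% of all genes. Among those that fell was the muscle-type subunit Cox7a1 (log2FC -1.98 ± 0.51), and the list median was -0.24 against -0.13 for all genes. Of 13 genes of the mitochondrial genome 4 fell and 10 were lower by the adjusted p alone, and their summed level was 62226 to 85669 CPM in PBS and 32495 to 48967 CPM in HDM libraries. The mitochondrial gene mt-Nd3 stood at 260.4, 475 and 720.3 CPM in PBS libraries and 62.4, 142.4 and 209.6 CPM in HDM libraries (log2FC -1.77 ± 0.23). Of 79 cytosolic ribosomal protein genes 4 fell and 60 were lower by the adjusted p alone. All 7 genes tested of the protocadherin alpha cluster, cell surface proteins best known from neurons, fell, with Pcdha4 at 8.1, 30.01 and 39.04 CPM in PBS libraries and 0.116, 0.284 and 0.917 CPM in HDM libraries (log2FC -6.45 ± 0.78). These genes share their last exons, so reads can be split between them.

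The HDM effect in the parenchyma differed from that in the airway of the same exposure for 3000 genes (17.3%), by the interaction term of the same limma-voom fit. That fit did not pair the tissues, and the labels do not say whether libraries of adjacent codes share an animal. With adjacent codes as a replicate block 3597 genes differed. The log2FC was higher in parenchyma for 1118 (6.43%) and lower for 1882 (10.8%), and this split turned with the scale: DESeq2 size factors gave 1507 higher and 1096 lower. Without PBS library X202 the second count was 914. Adam8, a myeloid sheddase, had a log2FC of 3.98 in parenchyma and 1.81 in airway, a difference of 2.16 ± 0.25 (adjusted p = 1.04e-06). For Cd14 the values were 3.74 and 2.12, a difference of 1.62 ± 0.20. Il13ra1, the signalling chain of the IL-13 receptor, stood at 64.5, 81.3 and 91.3 CPM in PBS libraries and 116.7, 129.6 and 157.7 CPM in HDM libraries, and its log2FC of 0.72 in parenchyma was -0.10 in airway, a difference of 0.82 ± 0.11 (adjusted p = 1.08e-05). Bach2, a factor of naive lymphocytes, went the other way, with -0.28 in parenchyma and 0.82 in airway, a difference of -1.10 ± 0.16.

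By list, 10 of 21 complement genes, 7 of 12 dendritic cell genes, 7 of 20 CC chemokines and 6 of 13 MHC class II genes differed between the tissues, against 17.3% of all genes, and 1 of 15 mucus genes did. Cfb rose further in parenchyma, by 1.89 ± 0.30 on the log2 scale, and Ccl11 by 2.53 ± 0.69. The tissues were not pure: Ager ran from 374 to 1914 CPM in the airway PBS libraries, below but close to the parenchyma range, and Scgb1a1 from 23479 to 74464 CPM. How far this mixing set the differences was not tested.

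**Figure D3:**
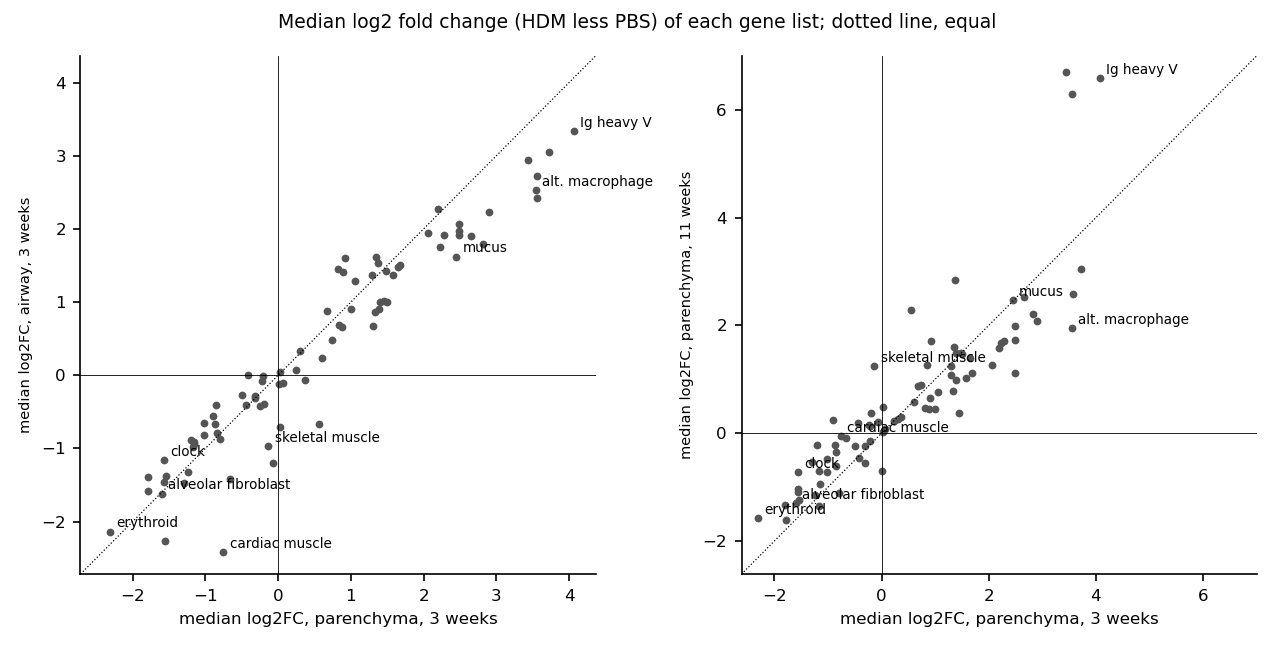
Each point is 1 gene list, placed by its median log2 fold change (HDM less PBS) in parenchyma at 3 weeks on the horizontal axis and, on the vertical axis, in airway at 3 weeks (left) or parenchyma at 11 weeks (right), with a dotted line where both are equal. On the left, cardiac muscle genes lie lower in airway (-2.42 against -0.75), though only 1 of these 11 genes passed the test of a difference between tissues. On the right type I interferon genes lie beneath the line (1.45 at 3 weeks against 0.37 at 11 weeks).

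Against 11 weeks of exposure, the effect differed for 8441 of 16955 genes (49.8%) by the interaction term of a limma-voom fit of 42 parenchyma libraries, each time point having its own PBS controls. At 11 weeks 2067 genes rose (12.2%) and 1135 fell (6.69%). Length of exposure and dosing schedule changed together and cannot be told apart. Type I interferon genes differed in 18 of 19 cases, with a list median of 1.45 at 3 weeks and 0.37 at 11 weeks. Isg15 had a log2FC of 0.63 at 11 weeks, a difference of 1.82 ± 0.33 (adjusted p = 1.58e-05). Cell cycle genes differed in 27 of 31 cases, with medians of 2.07 and 1.26, and alternatively activated macrophage genes in 12 of 15, with 3.54 and 1.95.

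Nfkb1, a subunit of the inflammatory factor NF-kappaB, had a log2FC of 1.36 at 3 weeks and 0.23 at 11 weeks, and Ptpn1, a phosphatase that restrains cytokine and insulin receptors, 1.79 and 0.62. Both differences, 1.24 ± 0.09 and 1.28 ± 0.10, passed, but for each the PBS libraries of week 11 also stood higher, at medians of 109.2 and 84.5 CPM against 58.5 and 49.1 CPM at week 3. Of 15 clock genes 7 differed, no larger a share than the 49.8% of all genes. Among them were Nr1d1, by -2.28 ± 0.65, and Dbp, by -2.05 ± 0.52. Pgrmc1, a haem-binding membrane protein, had a log2FC of -2.01 at 3 weeks and -0.94 at 11 weeks, a difference of -0.96 ± 0.09.

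Of 10 plasma cell genes 7 differed between the times, all 7 with the larger log2FC at 11 weeks. Jchain rose by a log2FC of 6.43 there, a difference of -2.86 ± 0.49 (adjusted p = 6.72e-06), and the plasma cell chaperone Mzb1 by 4.79, a difference of -1.76 ± 0.40. In other groups few differences passed: 1 of 17 lipid-laden macrophage genes and 2 of 15 mucus genes differed between the times, and Mmp12 had a log2FC of 5.74 and 5.77, a difference of 0.08 ± 0.39 (adjusted p = 0.875).

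The 2 sets of HDM libraries described above differed in macrophage, eosinophil and interferon genes, among others. Chil3 ran from 9965 to 22840 CPM in the 5 libraries of odd-numbered blocks and from 2441 to 3572 CPM in the 5 of even-numbered blocks. Arg1 ran from 232 to 308 CPM in odd and 52.6 to 191.4 CPM in even blocks, and Prg2 from 5.18 to 11.1 and 2.03 to 3.84 CPM. Interferon gamma targets had the reverse order: Cxcl9 ran from 69.3 to 307 CPM in odd and 419.9 to 991 CPM in even blocks. Counts assigned to the reference antibody gene Ighg2c ran from 3.75 to 8.68 and 11.4 to 43.9 CPM, and Col1a1 from 42 to 69.7 and 74.7 to 121.99 CPM. Whether the Ighg2c reads came from that gene in Balb/C mice was not tested. These genes were singled out after their values were seen, and no test was run on the split.

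**Figure D4:**
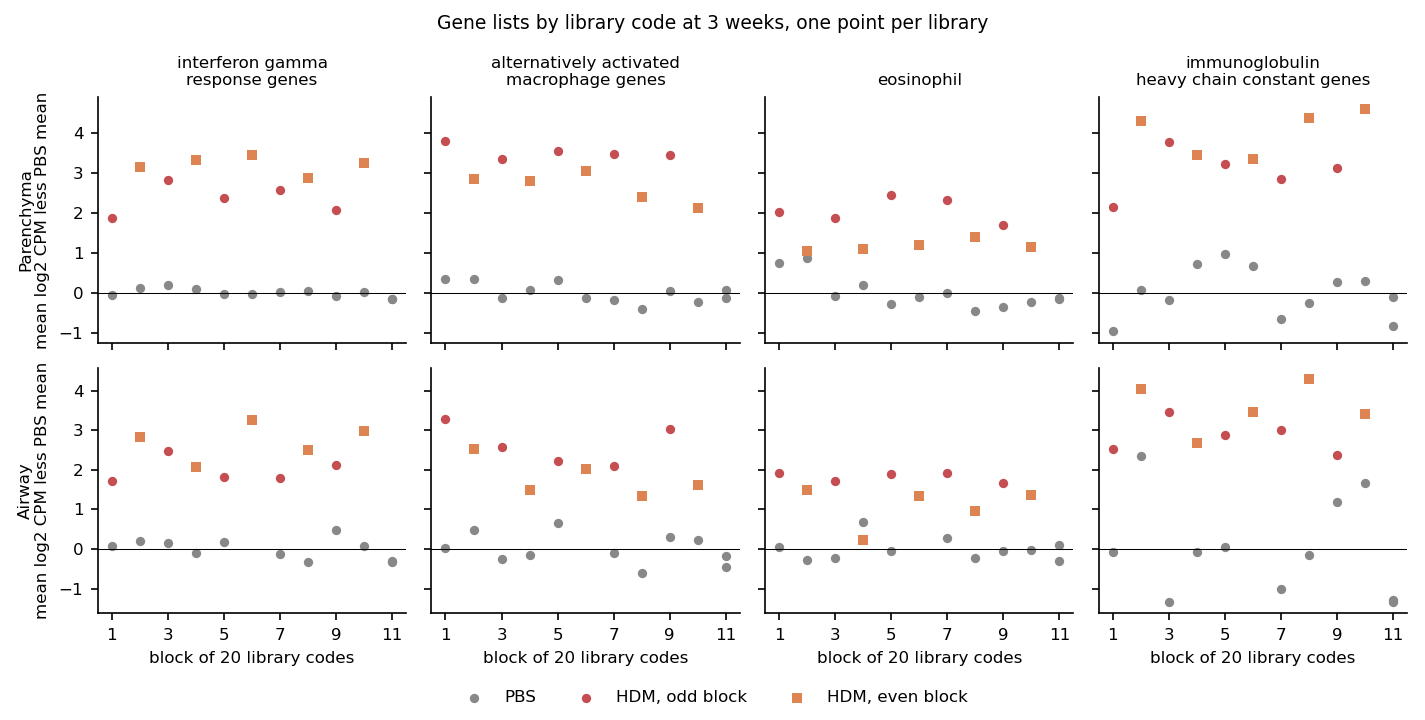
Each point is 1 library at 3 weeks, placed by its block of 20 library codes and by the mean log2 CPM of a gene list less the mean of the PBS libraries of its tissue, with parenchyma above and airway below. In parenchyma the HDM libraries of odd blocks (circles) lie below those of even blocks (squares) for interferon gamma response genes and above them for alternatively activated macrophage and eosinophil genes, while the PBS libraries (grey) show no such order.

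Over whole lists, the mean log2 level of interferon gamma response genes stood 1.88 to 2.83 above the PBS mean in odd blocks and 2.88 to 3.47 in even blocks, with 14 of 21 genes not overlapping. Alternatively activated macrophage genes stood 3.35 to 3.81 above it in odd and 2.14 to 3.05 in even blocks, and eosinophil genes 1.69 to 2.46 and 1.06 to 1.39. Capillary genes gave no such order, with -2.10 to -1.52 in odd and -2.21 to -1.78 in even blocks. The airway HDM libraries carry the codes next to those of the parenchyma, in the same blocks. The labels do not say whether both tissues came from the same mice, so the airway is not a separate sample of the split. It shared part of the order: 7 genes were higher and 24 lower in odd blocks in both tissues, against 0 with opposite order. Airway Cxcl9 ran from 49 to 202.3 CPM in odd and 244 to 534 CPM in even blocks. Within each set the HDM effect was still broad, with 2623 genes higher and 2029 lower in the odd blocks alone and 2671 and 2379 in the even blocks alone.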

How the data were processed

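The authors sequenced 100 base single reads on a NovaSeq instrument and processed them with the ENCODE pipeline. The submitters' notes name bcl2fastq 2.20.0.422, STAR 2.5.1b, RSEM 1.2.31, kallisto 0.44.0 and mm10, without saying which counter made the table. The deposited values are estimated counts per gene, 20.29% of the non-zero ones not whole, and they were rounded. Gene identifiers were matched without their version. Libraries were grouped by title. The main test was limma-voom (limma 3.58.1, edgeR 4.0.16 for TMM factors, R 4.3.3) on the 43 libraries of week 3, with genes kept where 9 or more libraries reached the CPM that 10 counts make in a library of median size, and Benjamini-Hochberg adjustment over all 17377 genes. Airway was compared by an interaction term in this fit, and week 11 in a separate fit of 42 libraries, so its differences are not plain subtractions. Where no library of a group exceeded 3 counts, that floor bounded the fold, and no fold is given where the group mean was under it, and depth limits cover counting error only. The gene lists and members were chosen with earlier results of these data known. Lists share members, such as Mmp12, Clec7a and Socs1, so their counts are not independent. Socs1 is counted with the type 2 receptors and with the interferon gamma response genes. Named genes were the first of each list, up to 2 rises and 2 falls of each list with the largest log2FC at a mean of at least 1 CPM, the 8 rises and 8 falls outside lists with the smallest p and no overlap, the 6 largest gains and losses in CPM, and 4 genes in each direction of both differences. The alternatives included DESeq2 1.42.0 and edgeR with quasi-likelihood, other filters, scaling and samples, leaving out each library, and a block by set of 20 library codes. The analyses by odd and even block and by adjacent airway and parenchyma codes were added after seeing the data. Sets of 20 codes did not tie HDM to PBS libraries: in 10 pairs of HDM and PBS libraries of one set, deviations correlated at -0.059 to 0.15. Whether airway and parenchyma libraries share an animal is a separate question that these pairs cannot decide. No libraries were duplicates, the smallest chi-square per degree of freedom being 9.85. Scripts were tested on simulated counts. Promoters came from RefSeq (GRCm38.p6) and were matched by symbol. Some genes that the naming rule gives are not reported here.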

Additional observations from a re-analysis of the deposited data

Results flagged for a closer look

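Single HDM libraries stood apart from the other 9 in 17 of 279 genes examined, where the gap to the nearest library exceeded 0.466 of the group's range, a limit that chance passes in about 1 of 20 groups. Library X64 was the one apart in 7 of the 17 and X4 in 5. X64 was highest for Mt2 (gap over range 0.617; 312 against a median of 47.3 CPM), Il1r2 (0.483) and Cxcr2 (0.471), and lowest for Ackr4 (0.569), Cthrc1 (0.571), Fabp1 (0.528) and Cidec (0.578). X4 was lowest for Cd74 (0.578), H2-Eb2 (0.556), H2-K1 (0.502) and Fscn1 (0.514) and highest for Grem1 (0.528). The others were Ccr2 (0.533, X164 lowest), Inhba (0.533, X84 lowest), Dapl1 (0.573, X184 highest), Mylpf (0.492, X104 highest) and Acan (0.712, X24 highest, with both groups at or under 3 counts a library).

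The HDM effect differed between parenchyma and airway for 3000 genes. Among the smallest p were Adam8 (2.16 higher in parenchyma on the log2 scale), Cd14 (1.62), Arhgap10 (1.09) and Il13ra1 (0.82), and on the other side Fam3b (-2.37), Endou (-1.37), Bach2 (-1.10) and Dennd5b (-0.75). Between weeks 3 and 11 it differed for 8441 genes, with 6530402F18Rik (1.73), Entpd1 (1.43), Ptpn1 (1.28) and Nfkb1 (1.24) higher at week 3, and Pgrmc1 (-0.96), Fgfr2 (-0.85), Gipc2 (-0.83) and Ripk4 (-0.75) lower.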

How the results depend on the processing

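The counts of 2518 higher and 2627 lower genes stayed within 1.5 times under edgeR (2522 and 2647), DESeq2 (2745 and 2361), DESeq2 size factors (2725 and 2306), all libraries of the series (2856 and 2625), the 22 parenchyma libraries alone (2507 and 2056) and no filter on low counts (3462 and 2962). A filter at 10 CPM, which tests fewer genes, gave 1509 and 1053, and a test against a log2FC of 1 gave 1673 and 1263. With the replicate block, though the codes do not pair libraries, they were 2461 and 2055. Leaving out 1 library gave 2492 to 2720 higher and 2229 to 2697 lower. For parenchyma less airway, the 1882 lower genes were 1096 with DESeq2 size factors, 1049 without a filter and 698 at 10 CPM, and 914 to 2127 with 1 library left out (914 without PBS X202, 997 without HDM X64, 1128 without X184, 1215 without X24, 2127 without PBS X2), and the 1118 higher genes were 1916 with DESeq2. With airway and parenchyma libraries of adjacent codes as a replicate block, an alternative added after seeing the data, 3597 genes differed (1471 higher, 2126 lower). The labels do not say that such libraries share an animal, and their deviations from the group means correlated at -0.217 to 0.319 in 11 PBS pairs and 0.026 to 0.415 in 10 HDM pairs, with 3 and 6 parenchyma libraries closest to their own partner. Odd blocks alone gave 599 (537 higher, 62 lower) and even blocks 278 (130 lower, and about 1.5e+02 higher), with fewer libraries. For week 3 less week 11 the 8441 were 4547 (2621 and 1926) in odd blocks and 5892 in even blocks (2649 lower), and 2910 higher genes remained at 10 CPM. Values near 0 changed sign: Msln (-0.10) was 0.01 in the 22 libraries alone, 0.06 with DESeq2, 0.02 without a filter, 0.04 with the replicate block, 0.54 in even blocks, 0.00 with the block as a term, and -0.14 to 0.00 with 1 library left out. Acta1 (0.43) moved far from 0, to -3.98 with DESeq2 (adjusted p = 1.75e-04) and -4.06 with edgeR (adjusted p = 0.00175), and was -0.50 in even blocks. It is a skeletal muscle gene of the list that summed to 129.1 CPM in PBS library X62, whose part was not tested. Acan (-0.15) was 0.07 with DESeq2, 0.84 with edgeR and 0.05 in even blocks. Krt8 (0.03) was -0.06 in odd blocks and -0.03 to 0.14 with 1 library left out. Apart from the changes by construction, the cause was not tested.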
